A study of Mus musculus with 7 samples.

Results

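MHC class I molecules show peptides from inside a cell to CD8+ T cells, and CD8+ T cells carry these molecules on their own surface too. The heavy chain, encoded at the mouse H2 locus by genes such as H2-K1 and H2-D1, pairs with beta-2-microglobulin (B2m), and the transporter formed by Tap1 and Tap2 brings peptides into the endoplasmic reticulum, where tapasin (Tapbp) helps to load them. Nlrc5 is the transcriptional coactivator that works at class I promoters. Runx3 is a RUNX family transcription factor of CD8+ T cells, and H3K4me1, histone H3 with 1 methyl group on lysine 4, marks enhancers and the flanks of active promoters.

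The 7 genes were examined in resting CD8+ T cells (resting CD8-TC) for regions bound by Runx3 and for regions marked by H3K4me1. A region was counted for a gene when its midpoint lay in the gene body, as annotated by GENCODE on the mouse build NCBIM37 (mm9), or within 10 kb of it. By this rule 3 of 4934 Runx3-bound regions and 37 of 76705 H3K4me1-marked regions belonged to the 7 genes, and each of the 3 Runx3-bound regions lay inside or partly inside an H3K4me1-marked one.

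The series holds 7 ChIP-seq libraries, namely 3 libraries of 2 repeats made with a polyclonal rabbit anti-Runx3 antibody prepared by the study's laboratory, 2 made with a monoclonal antibody to H3K4me1, and 2 made with non-immune rabbit serum (NIS) as the control. All came from unstimulated spleen CD8+ T cells of WT mice of the ICR stock, with 18 mice pooled, anti-CD8 magnetic beads for positive selection and a purity above 95%. Cells were fixed in 1% formaldehyde, and fragments of about 300 bp were read over 40 to 42 bases. Repeats were joined before regions were called against NIS, so each antibody has 1 list of positions with no height, p-value or read number, the depth behind a region is unknown, and no difference described here could be tested against replicate error.

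ICR mice are outbred, and positive selection on CD8 can also retain CD8+ dendritic cells. As a check of the cell label, all 8 T cell genes examined (Cd3e, Cd3d, Cd3g, Cd8a, Cd8b1, Cd2, Cd5 and Lck) had a Runx3-bound region within 10 kb, and their windows were covered by H3K4me1-marked regions over a median of 46.5% of their length. These 8 genes are not independent, since the neighbours Cd3d and Cd3g shared the same 2 Runx3-bound regions. Of the genes of other cells, 3 of 4 B cell genes, 2 of 5 dendritic cell genes and 0 of 4 macrophage genes had a Runx3-bound region, and their median H3K4me1 cover was 31.8%, 20.6% and 9.34%. Over all protein-coding genes 15.5% had a Runx3-bound region and the median cover was 5.89%, so regions at B cell genes were not few. The part of other cells in the regions below was not tested.

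Sequences from the Runx3-bound regions are given here, with the centre taken as the midpoint between start and end. The lists give no point of strongest signal, and which words Runx3 reads was not tested. The RUNX word was taken as TGTGGT or TGTGGC, and likewise TGCGGT or TGCGGC, on either strand, and capitals mark it in the next 3 sequences, given 5′ to 3′ on the plus strand of NCBIM37. The first is the central 200 bases of the region in a Tap2 intron (chr17:34347576-34347775), the second the central 200 bases of the region upstream of H2-D1 (chr17:35395683-35395882), and the third a stretch of 120 bases of that same upstream region in which 3 of its RUNX words lie close together (chr17:35396160-35396279).
Tap2 intron: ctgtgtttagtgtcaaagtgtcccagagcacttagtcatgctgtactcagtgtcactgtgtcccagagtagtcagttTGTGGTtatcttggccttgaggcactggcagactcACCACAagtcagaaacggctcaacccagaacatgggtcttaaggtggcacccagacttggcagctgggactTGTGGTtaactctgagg
H2-D1 upstream, centre: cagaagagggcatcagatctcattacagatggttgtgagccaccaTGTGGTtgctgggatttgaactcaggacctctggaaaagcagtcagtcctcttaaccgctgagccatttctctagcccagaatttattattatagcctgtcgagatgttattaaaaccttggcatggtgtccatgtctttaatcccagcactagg
H2-D1 upstream, cluster: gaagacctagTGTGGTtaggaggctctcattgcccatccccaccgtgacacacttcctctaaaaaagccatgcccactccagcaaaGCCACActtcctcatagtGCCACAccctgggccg

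The other Runx3-bound region of H2-D1, at the start of the gene, held no RUNX word. It is shown over the 150 bases just before the first annotated base of H2-D1 (chr17:35399525-35399674, plus strand), above the counterpart of H2-K1 (chr17:34137574-34137725, minus strand), because the 2 heavy chain genes are near copies and only H2-D1 was in the Runx3 list here. Capitals mark GGAA, the core word of ETS family factors, on either strand.
H2-D1 start: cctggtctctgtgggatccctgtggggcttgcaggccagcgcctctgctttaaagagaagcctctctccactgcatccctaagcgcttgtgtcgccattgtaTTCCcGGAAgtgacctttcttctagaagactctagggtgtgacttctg
H2-K1 counterpart: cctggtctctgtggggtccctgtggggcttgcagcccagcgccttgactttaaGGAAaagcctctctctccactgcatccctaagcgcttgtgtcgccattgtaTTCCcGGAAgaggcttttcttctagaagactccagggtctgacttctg

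Runx3-bound regions lay at 2 of the 7 genes, H2-D1 with 2 and Tap2 with 1, and at none of H2-K1, B2m, Tap1, Tapbp and Nlrc5. Over 22350 protein-coding genes, 15.5% had at least 1 such region within 10 kb (95% Wilson interval 15.0% to 16.0%, which covers counting error only), so the count of genes by itself says little about the 7. Among the 8873 genes with 4 or more H3K4me1-marked regions, as all 7 had, the share was 29.9%. A gene with 2 or more Runx3-bound regions, as H2-D1, was rarer, at 3.12% of protein-coding genes.

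The Runx3-bound region upstream of H2-D1 (chr17:35394829-35396735) spanned 1907 bp, from -4846 to -2940 bp of the first base of the gene, in sequence annotated as between genes. It was the 15th widest of 4934, and 0.304% of the list was as wide, against a median of 851 bp and a range of 327 to 5232 bp. The whole of it lay in an H3K4me1-marked region of 6075 bp that ran from -5745 to 329 bp of the H2-D1 start, the widest of the 37, with 1.67% of all H3K4me1-marked regions as wide.

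This upstream region held 6 RUNX words, 4 of TGTGGT and 2 of TGTGGC. Per length it was near the list as a whole, with 3.15 words per kb against a median of 2.77 in all Runx3-bound regions. Only 1 of the 6 was in the central 200 bases, at -51 bp of the midpoint. With 8 bases on either side, that central word was found 42519 times on the chromosomes of the reference, so it sits in a common repeat, while 4 of the other words with their flanks were found once and the fifth 3 times. The 3 words of the cluster lay at 391, 467 and 485 bp from the midpoint. The region also held 1 AP-1 word (TGANTCA, present in 25.3% of whole Runx3-bound regions) and 1 word of the interferon-stimulated response element (ISRE, TTTCNNTT, 68.4%).

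The second H2-D1 region (chr17:35399324-35400102, 779 bp, 3123rd in width) covered the start of the gene, from -351 to 427 bp of the GENCODE first base, with its midpoint in a UTR exon. RefSeq places the start of H2-D1 further downstream, at position 35400039 of chr17, and measured from there the region lay almost wholly upstream. Runx3-bound midpoints within 1 kb of the first base were found at 3.73% of protein-coding genes. H3K4me1-marked regions covered 87.4% of it.

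No RUNX word occurred anywhere in the start region, whereas 88.8% of all Runx3-bound regions held at least 1. It held 10 GGAA words, a core found in 99.9% of whole Runx3-bound regions, with 5 in the central 200 bases, where 90.6% of regions held it, and 1 longer ETS word, CCGGAAGT, at -79 bp from its midpoint, which 4.01% of Runx3-bound regions held. It also held the elements known from class I promoters, a kappaB word (GGGGATTCC, in 0.709% of Runx3-bound regions), an ISRE word (68.4%), 2 CCAAT boxes (66.3%) and the word TGACG (32.4%), the core of the cyclic AMP response element. Its GC content was 56.5%, against 48.1% for the upstream region and a median of 45.9% for all Runx3-bound regions. Absence of the RUNX word means only that these letters are not in this window of the reference.

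The Tap2 region (chr17:34347282-34348068) spanned 787 bp, from 6810 to 7596 bp of the Tap2 first base, within an intron of this transporter subunit. It lay wholly inside an H3K4me1-marked region of 2726 bp. All 3 of its RUNX words were TGTGGT, all were in the central 200 bases, at -19, 16 and 87 bp of the midpoint, and each occurred once in the genome with its flanks. Of all Runx3-bound regions 66.0% held a RUNX word in the central 200 bases. The region held 1 AP-1 word at 184 bp, and its midpoint was also within 10 kb of Psmb8, a catalytic subunit of the immunoproteasome.

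The 3 regions thus differed in place and sequence, and 1 in width, with 1 wide and between genes, 1 at a promoter without a RUNX word and 1 in an intron with RUNX words at its centre. All 3 shared bases with an H3K4me1-marked region, as did 78.8% of the whole Runx3 list. Just inside the limit of 10 kb, the farthest Runx3-bound region was the upstream one of H2-D1, at 3.89 kb from the gene body. Just outside, the nearest to Tap1 was the Tap2 intron region at 13.5 kb, and the nearest to Tapbp was a region in a Wdr46 intron at 18.5 kb. This Wdr46 region was also the nearest to H2-K1, at 48.2 kb, and the distances were larger for Nlrc5 (59.2 kb) and B2m (224 kb).

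**Figure D1:**
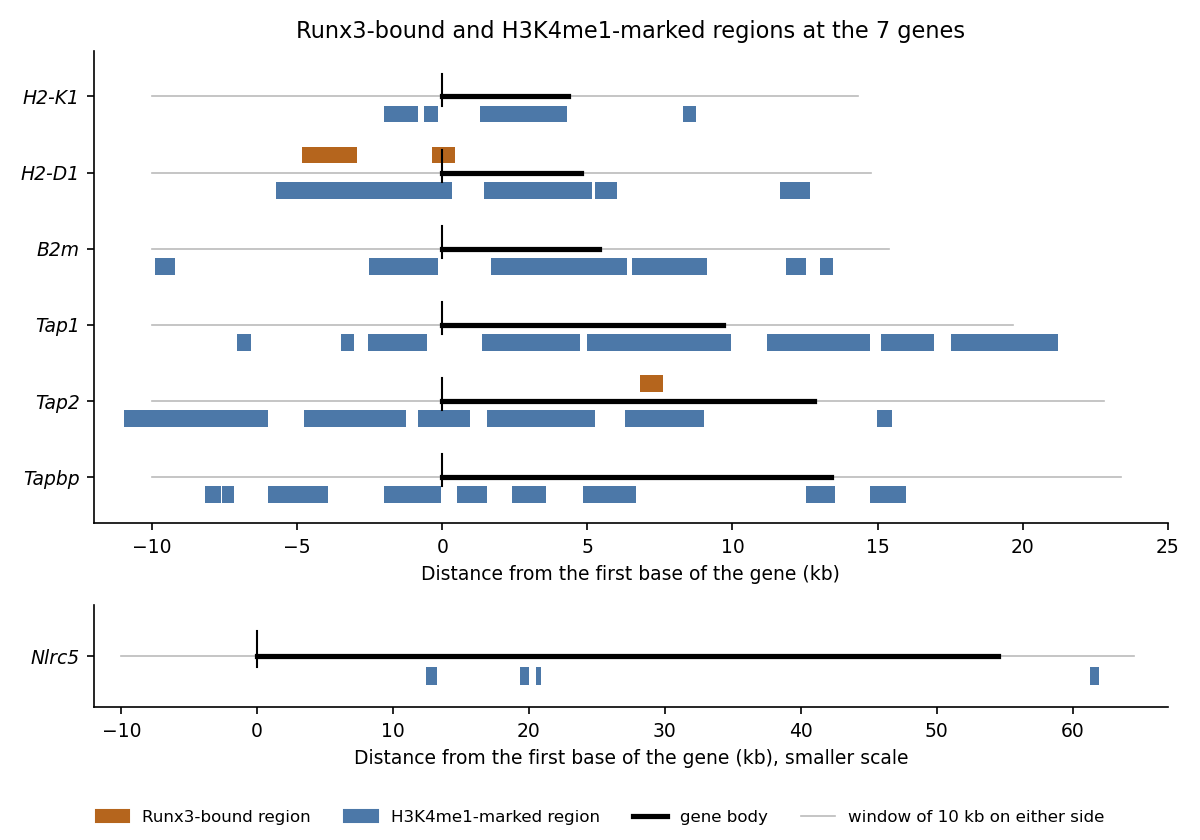
Positions of the Runx3-bound (brown) and H3K4me1-marked (blue) regions at each gene, with the distance from the first annotated base in kb on the horizontal axis, positive in the direction of transcription, the gene body as a black bar and its window of 10 kb as a grey line. Brown bars occur only at H2-D1 and Tap2, and the blue bars are broken around the first base of H2-K1, B2m, Tap1 and Tapbp.

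H3K4me1-marked regions were found at all 7 genes, as at 69.9% of protein-coding genes. H2-K1 had 4, H2-D1 4, B2m 6, Tap1 8, Tap2 6, Tapbp 9 and Nlrc5 4, against a median of 3 over protein-coding genes, of which 39.7% had 4 or more. Tap1 and Tap2 lie close together, with Psmb8 between them, and shared 4 regions, so the 41 pairs of a gene and a region came from 37 regions. Their median width was 1167 bp (range 399 to 6075 bp), and that of the whole list was 979 bp.

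Covered length set 6 of the 7 genes apart from most genes more than the number of regions did. H3K4me1-marked regions covered 63.4% of the Tap1 window, 49.6% for Tap2, 46.6% for H2-D1, 45.3% for B2m, 34.2% for Tapbp and 21.1% for H2-K1. The median over protein-coding genes was 5.89%, and genes at or above these values made up 0.506% for Tap1, 1.91% for Tap2, 2.48% for H2-D1, 2.78% for B2m, 6.31% for Tapbp and 16.7% for H2-K1. The windows of Tap1 and Tap2 overlap and share 4 regions, so their covers are in part the same bases. Psmb8 lies in both windows and Psmb9 in that of Tap1. Nlrc5 had 3.43% of its window covered, a value that 59.0% of protein-coding genes reached, but its gene model here is typed as a lincRNA, so its cover, start and distances hold for that model and may not for the coding gene.

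Within the gene bodies the cover was higher still in each of those 6 genes. It reached 83.5% of Tap1, 76.6% of H2-D1, 69.6% of H2-K1, 69.0% of B2m, 57.7% of Tap2 and 36.5% of Tapbp, with a median over protein-coding genes of 4.13%. For H2-K1 this contrasted with its window, since a region of 3005 bp covered most of the gene while little of the sequence around it was marked. The Tapbp gene model of GENCODE begins at the start of Zbtb22, a zinc finger gene, so that part of its cover belongs to both genes, and B2m overlaps an intron of Patl2 on the other strand.

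The widest regions after that of H2-D1 were 1 of 4966 bp over the 3′ part of Tap1 and 1 of 4689 bp over B2m, with 2.82% and 3.25% of the list as wide. In H2-D1 a region of 3710 bp covered the gene from 1444 bp on, and at Tap2 a region of 1804 bp lay across the start. All 4 regions counted for Nlrc5 were narrow, between 399 and 777 bp, with 3 in introns of Nlrc5 between 12435 and 20919 bp from its first base and the fourth in an intron of the neighbouring Cpne2. Just inside and outside the limit, Tap1 had an H3K4me1-marked region at 9.70 kb and the next at 13.4 kb, and Tapbp had 1 at 7.90 kb and the next at 10.4 kb.

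**Figure D2:**
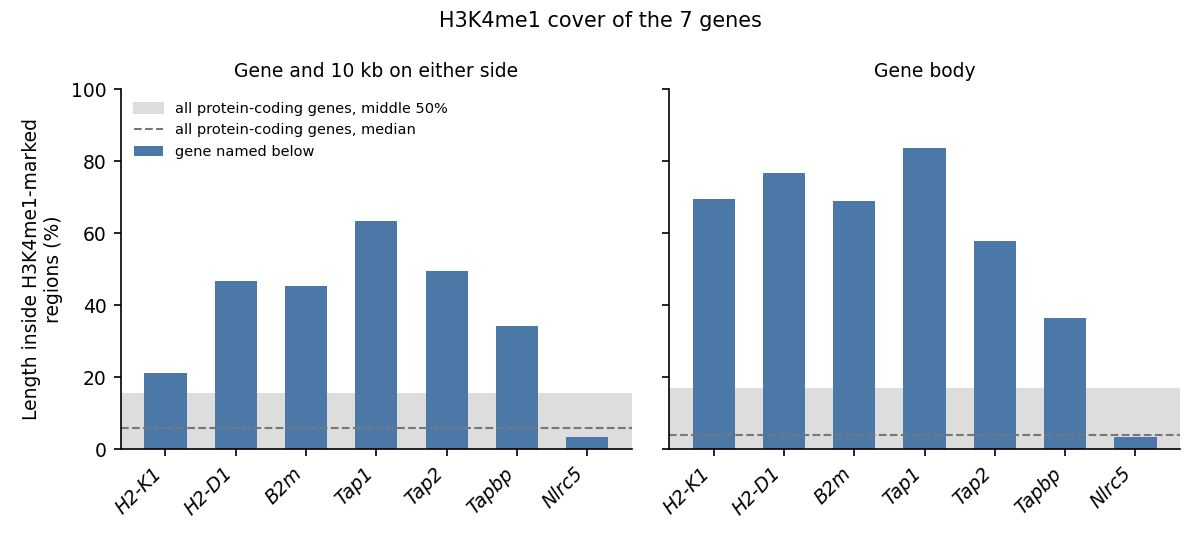
Share of the gene with 10 kb on either side (left) and of the gene body (right) that lay inside H3K4me1-marked regions, in percent, with 1 bar for each gene from the 1 joined list, and the median (dashed) and middle 50% (grey) of 22350 protein-coding genes. The bars of 6 genes rise above the grey band in both panels, from 21.1% to 63.4% on the left and from 36.5% to 83.5% on the right, and the bar of Nlrc5 stays within it.

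The place of the mark at the transcription start depended on which start was used. The first GENCODE base lay inside an H3K4me1-marked region at 2 of 7 genes, H2-D1 and Tap2, against 17.7% of protein-coding genes. The count was 5 of 7 when the first base of any annotated transcript counted, against 27.9% of protein-coding genes by the same rule, and 5 of 7 when a region within 500 bp of the first base counted, against 50.6%. At 4 of 7, H2-K1, B2m, Tap1 and Tapbp, it lay in a gap with an edge within 3 kb on each side, a layout chosen after the data were seen and found at 30.1% of protein-coding genes. Nlrc5 had its nearest edges at 13820 bp upstream and 12435 bp downstream.

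RefSeq promoters gave starts for 5 of the genes, H2-K1 with 2 starts and H2-D1, B2m, Tap1 and Tapbp with 1 each. None of these 6 starts lay inside an H3K4me1-marked region (17.1% of 31890 placed RefSeq starts did), and all 6 lay in a gap with an edge within 3 kb on each side (24.4%). The upstream edge was at 147 and 133 bp for H2-K1, 35 bp for H2-D1, 149 bp for B2m, 539 bp for Tap1 and 5 bp for Tapbp. The downstream edge was farther in each, at 1306 and 1320 bp for H2-K1, 1080 bp for H2-D1, 1673 bp for B2m, 1351 bp for Tap1 and 1274 bp for Tapbp. Over the 7793 RefSeq starts in such gaps the median edges were 293 bp upstream and 390 bp downstream, and 9.32% had a downstream edge at 1080 bp or more. At these 5 genes the gap around the RefSeq start thus reached farther into the gene than upstream of it. The nearest upstream region had its midpoint in a Psmb9 exon for Tap1, a Zbtb22 UTR exon for Tapbp and a Patl2 intron for B2m. The part of these other genes in the layout was not tested. This layout does not extend to all 7 or to all starts, since no RefSeq start was used for Tap2 and Nlrc5, the GENCODE first bases of Tap2 and H2-D1 lay inside H3K4me1, and from the GENCODE first base of Tapbp the downstream edge was at 512 bp. Other histone marks were not analysed here.

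**Figure D3:**
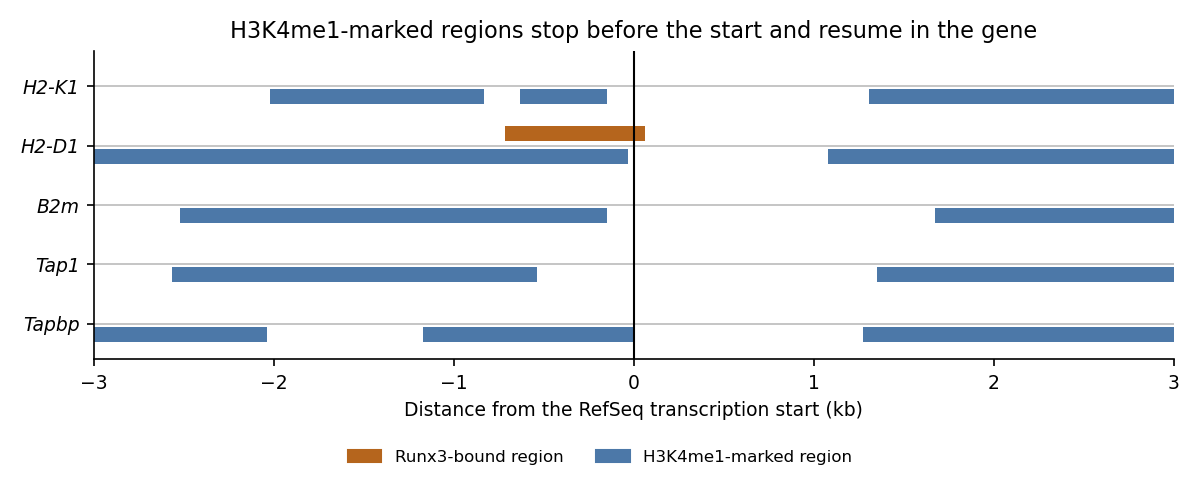
H3K4me1-marked (blue) and Runx3-bound (brown) regions within 3 kb of the RefSeq start of 5 genes, with the distance in kb on the horizontal axis, positive into the gene (for H2-K1, the start nearer the gene). The blue bars end 5 to 539 bp before the start and resume 1080 to 1673 bp after it, and the brown bar of H2-D1 ends just past the start.

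Upstream sequences of the class I genes carry known control elements, and they are shown for H2-K1, with the 250 bases before its start (chr17:34137279-34137528, minus strand), and B2m, with the 249 bases before its first annotated base (chr2:121973173-121973421, plus strand). Capitals mark the kappaB word, the ISRE word, the CCAAT box, the word TGACG and the RUNX words, each on either strand. For H2-D1 only the 29 bases from the kappaB to the ISRE word are given (chr17:35399868-35399896, plus strand), beside the same stretch of H2-K1 (chr17:34137375-34137403, minus strand). For Tapbp the 30 bases around a RUNX word are given (chr17:34056319-34056348, plus strand).
H2-K1 upstream: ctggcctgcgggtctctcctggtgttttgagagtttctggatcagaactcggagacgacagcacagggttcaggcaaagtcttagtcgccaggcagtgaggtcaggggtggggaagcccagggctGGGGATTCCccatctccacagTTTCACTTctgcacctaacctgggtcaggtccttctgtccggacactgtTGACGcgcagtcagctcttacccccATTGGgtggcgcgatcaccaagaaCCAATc
B2m upstream: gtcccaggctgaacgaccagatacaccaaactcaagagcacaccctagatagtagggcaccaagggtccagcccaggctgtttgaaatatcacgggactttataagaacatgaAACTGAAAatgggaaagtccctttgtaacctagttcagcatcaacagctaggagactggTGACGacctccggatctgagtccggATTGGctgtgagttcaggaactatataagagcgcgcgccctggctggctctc
H2-K1 kappaB to ISRE: GGGGATTCCccatctccacagTTTCACTT
H2-D1 kappaB to ISRE: GGGGATTCCccatctcctcagTTTCACTT
Tapbp: ggaacgcgggagTGTGGTtttaagggaggt

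The RefSeq promoters, 250 bases before to 50 after a start, of H2-K1 and H2-D1 held the same set, 1 kappaB, 1 ISRE and 1 TGACG word and 2 CCAAT words. The kappaB word was rare, in 82 of 32851 promoters (0.250%), and the genes with it included 4 class I heavy chains, H2-K1, H2-D1, H2-Q6 and H2-Q7. B2m had an ISRE word, a CCAAT word and 2 TGACG words, Tap1 had a CCAAT and a TGACG word, and Tapbp had 2 CCAAT words. ISRE, CCAAT and TGACG words were common, in 23.9%, 37.4% and 20.8% of promoters.

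A RUNX word was in the promoter of Tapbp, 92 bases before the start, and in none of the promoters of H2-K1, H2-D1, B2m and Tap1, against 45.2% of all promoters. Tapbp had no Runx3-bound region within 10 kb. In the 10 kb windows of the genes without a Runx3-bound region there were 1.50 RUNX words per kb at B2m, 1.89 at H2-K1, 2.03 at Nlrc5, 2.22 at Tap1 and 2.55 at Tapbp. H2-D1 had 2.18 and Tap2 2.26 per kb, so B2m, H2-K1 and Nlrc5 lay below both, Tap1 between them and Tapbp above both. The chromosomes 1 to 19 and X together had 1.48 per kb.

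H2-K1 and H2-D1 encode the classical heavy chains, and the start region of H2-D1 could be aligned to H2-K1. Of its 779 bp, 727 bases aligned to chr17:34137168-34137899 and 642 of them (88.3%) were identical, with 140 of 149 (94.0%) in the stretch printed before the start. The H2-K1 counterpart was in no Runx3-bound region. The element words were alike, with 1 kappaB, 1 ISRE, 1 TGACG and 2 CCAAT words in each. GGAA occurred 10 times in H2-D1 and 9 times in H2-K1, CCGGAAGT 1 time and 0 times, and the RUNX words 0 times and 1 time, the latter a TGTGGC lying 606 bases before the H2-K1 start. H3K4me1-marked regions covered 87.0% of the aligned H2-D1 span and 64.9% of the H2-K1 span. At this pair, then, the copy with a RUNX word was the one outside the Runx3 list.

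**Figure D4:**
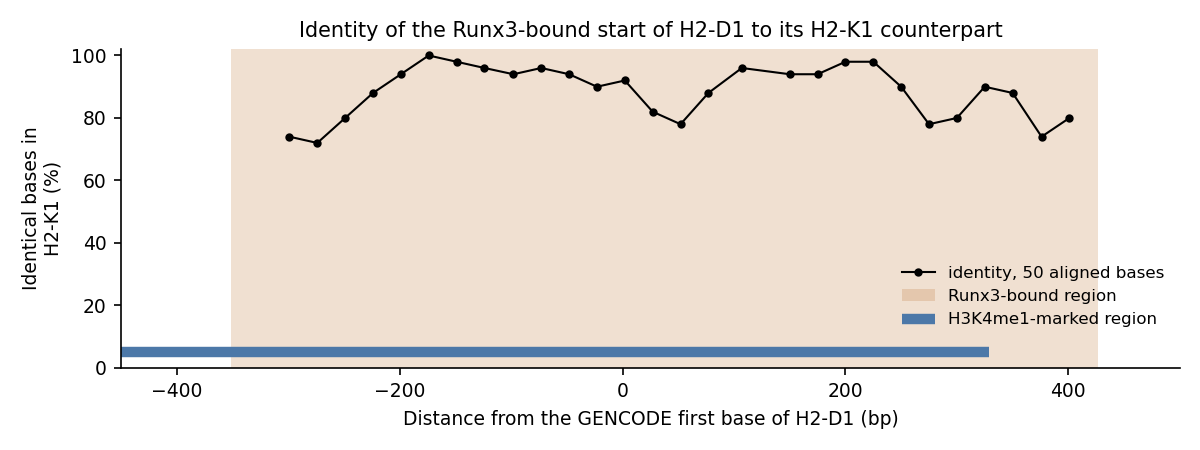
Percent of identical bases between the start of H2-D1 and its H2-K1 counterpart in windows of 50 aligned bases (points), against the distance in bp from the first GENCODE base of H2-D1, with the Runx3-bound region shaded and the H3K4me1-marked region as a bar. Every window plotted has 72.0% or more identical bases, and the Runx3-bound region reaches beyond the end of the H3K4me1-marked one on the right.

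Only reads that align to 1 place were kept by the study, so near copies can lose reads. Of all 40-base words of the gene body, 74.7% for H2-K1 and 76.9% for H2-D1 occurred once in the reference, against 98.3% for B2m, 97.0% for Tap1, 96.7% for Tap2, 96.2% for Tapbp and 97.1% for Nlrc5. Within 500 bp of the GENCODE first base the shares were 91.4% for H2-K1 and 92.4% for H2-D1, but these windows are not counterparts of each other. The H3K4me1-marked region of H2-K1 that lies mostly in the counterpart of the H2-D1 start region (chr17:34137425-34137911) had 74.3% unique words. That region is only part of the counterpart, whose share as a whole was not computed. Whether unique alignment bears on the absence of the counterpart from the Runx3 list was not tested. The share was 95.7% for the Runx3-bound region of Tap2, 91.2% for the start region of H2-D1 and 88.4% for its upstream region, all below the median of the list (100%) and the last also below its 5th percentile (90.1%). How alleles of ICR mice that differ from the reference in these polymorphic genes bear on the 2 lists was not tested.

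The other class I heavy chains include nonclassical genes of the Q, T and M groups, and 2 of the 15 annotated had a Runx3-bound region, close to the 15.5% of protein-coding genes, H2-T24 with 2 and H2-M3 with 1 whose midpoint lay 775 bp from the first base. H3K4me1 covered a median of 14.8% of their windows, from 1.86% at H2-M2 to 64.9% at H2-T24. Unique 40-base words made up 24.8% of the window of H2-Q7 and 37.7% of that of H2-Q6, where the cover was 1.94% and 2.54%. Cover was as low where more words were unique, with 1.86% at H2-M2 (65.5% unique) and 2.31% at H2-T3 (73.0% unique). It was 27.3% at H2-T22 with 49.8% unique words. The part of sequence copies in the low cover was not tested.

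**Figure D5:**
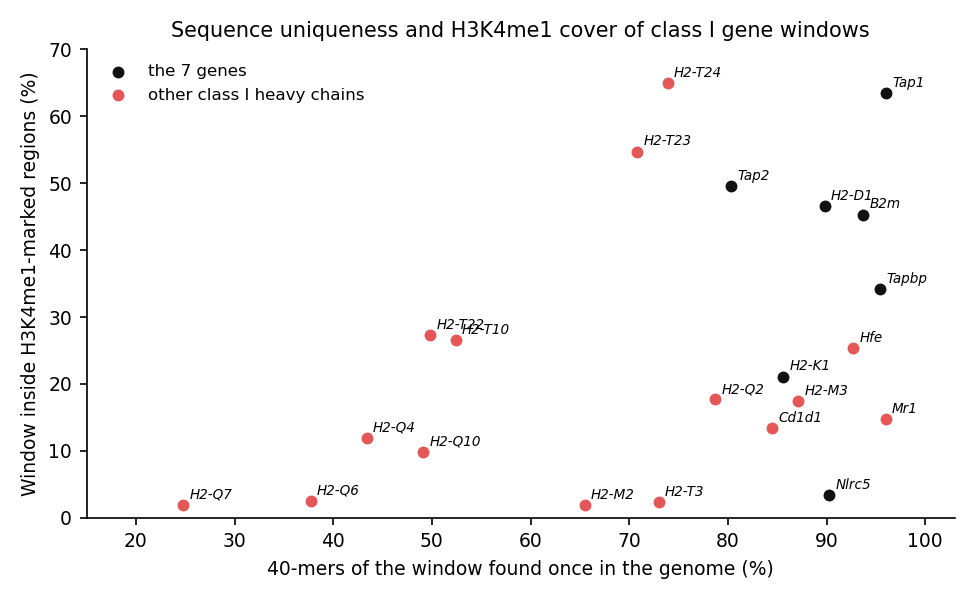
Percent of the gene window of 10 kb inside H3K4me1-marked regions against the percent of its 40-base words found once in the genome, for the 7 genes (black) and 15 other class I heavy chains (red). H2-Q7 and H2-Q6 lie farthest left, H2-M2 and H2-T3 have as little cover with more unique words, and H2-K1 and H2-D1, with 85.6% and 89.8% unique words, have 21.1% and 46.6% cover.

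Genes that supply and load peptides had a Runx3-bound region within 10 kb at 5 of 10, against 15.5% of protein-coding genes and 29.9% of those with 4 or more H3K4me1-marked regions. The midpoints all lay outside the bodies of these 5 genes, before the first base or past the last. The median H3K4me1 cover of the 10 was 38.7%. Psmb8 shared the Tap2 intron region, and Psme1 and Psme2, which encode the PA28 activator of the proteasome, shared 1 region. Calr, which encodes the chaperone calreticulin, had a region with its midpoint at -125 bp of the first base, and Tapbpl, which encodes a tapasin-related editor of peptides, had 2. Psmb9, Psmb10, Erap1, Canx and Pdia3 had none. Cover ranged from 3.37% at Erap1, the aminopeptidase that trims peptides, to 84.9% at Tapbpl, with 80.2% at Psmb8 and 53.9% at Psmb9, which shares its upstream sequence with Tap1.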

How the data were processed

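The deposited files used were 2 lists of region positions, for Runx3 and H3K4me1, in mm9 coordinates. Per the labels and the study's methods, the authors aligned reads with ELAND (the submitters' processing notes name CASAVA 1.6 and 1.7), kept unique alignments, joined repeats and called regions against NIS with MACS. The lists hold starts and ends only.

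Midpoints were counted over GENCODE vM1 genes on NCBIM37, the longest protein-coding model per symbol first, with counts and covered length over 22350 protein-coding genes as background (Nlrc5 is annotated as a lincRNA and is not among these). RefSeq promoters (GRCm38.p6) were placed by exact match, 31890 of 32851 once, and 5 of the 7 genes matched. H2-D1 and H2-K1 were aligned with Biopython 1.88 (local, match 2, mismatch -3, gap open -5, extension -2). Python 3.11.15 and numba 0.67.0 served for counts and 40-base words, and counting was tested on simulated regions.

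The named genes were the 7, those of further lists with a Runx3-bound region, and examples. Members and lists were chosen with earlier results of these data known. A gene of the regulator list is not reported here and is left out of its counts. No test was run because the calls rest on joined repeats. Windows of 0, 5, 20 and 50 kb, merged regions and other overlap rules were tried.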

Additional observations from a re-analysis of the deposited data

How the results depend on the processing

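Of 34 alternative values for 8 results, 19 were kept, which means within 1.5 times the reported count or cover, or, for the share over protein-coding genes, within its Wilson interval. The 3 Runx3-bound regions became 5 in windows of 50 kb, and the 37 H3K4me1-marked regions became 15 in gene bodies alone and 111 in windows of 50 kb. The 2 genes with a Runx3-bound region became 4 at 20 kb and 5 at 50 kb, while the share over protein-coding genes was 8.52%, 13.0%, 19.8% and 30.8% at 0, 5, 20 and 50 kb and 15.0% over genes in the length range of the 7. The 2 genes with H3K4me1 at the first base became 5 when an edge within 500 bp counted (50.6% of protein-coding genes), 5 when any annotated transcript counted (27.9%), and 0 of 5 with RefSeq starts, which were chosen after seeing the data. The median cover was 69.0% of gene bodies and 25.7% of windows of 50 kb. The counts can only grow with the window, by construction.

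No paired analysis was possible because the regions were called on joined repeats. Leaving out a single repeat was not feasible either. The lists hold no height or reads, so weaker binding below the calling limit cannot be told apart from none, and a gene without a region is one without a called region.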

Other observations

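Among 11 regulators of class I genes, 3 had a Runx3-bound region within 10 kb, against 15.5% of protein-coding genes and 29.9% of those with 4 or more H3K4me1-marked regions. Rfx5, a subunit of the RFX complex that binds class I and class II promoters, had 1 with its midpoint at -205 bp of the first base. Nfkb1, which encodes the p50 subunit of NF-kappaB, and Creb1, a factor of the cyclic AMP response element, had 2 each, and all 5 regions overlapped H3K4me1. Irf1, Irf2, Rela, Rfxap, Rfxank, Nfya, Nfyb and Nfyc had none. Irf1, which activates class I genes after interferon, was covered by H3K4me1 over 58.3% of its window, the highest of the list, whose median was 22.2% (lowest 10.6%).

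MHC class II presentation genes, which are chiefly active in B cells and dendritic cells, were also covered, over a median of 41.7% of their windows (30.2% at Cd74 to 63.1% at H2-DMa). Of the 11 genes, 1 had a Runx3-bound region, against 15.5% of protein-coding genes and 29.9% of those with 4 or more H3K4me1-marked regions. This was Ctss, which encodes the protease cathepsin S, with the region at -2945 bp of the first base. The class II coactivator Ciita had 20 H3K4me1-marked regions and no Runx3-bound region, whereas the class I coactivator Nlrc5 had 4 and also none. Retained cells of other types were not tested as a source of these regions.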
